A study of Mus musculus with 14 samples.

Results

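The mitochondrial ribosomal protein genes are described here in mouse MLL-AF9 leukemia cells transduced with sgSgf29 or sgCtrl. They are the genes of the count table named Mrpl or Mrps with a number and at most 1 letter (a, b or c), with pseudogenes left out. This rule gave 78 of 22155 genes, of which 49 are named for the large subunit (Mrpl) and 29 for the small subunit (Mrps). The names, not the measured values, chose the genes.

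Messenger RNA was sequenced in 6 libraries, 3 of sgSgf29 cells and 3 of sgCtrl cells, to find what changes in the transcriptome when Sgf29, a subunit of the SAGA and ATAC chromatin complexes, is targeted. Both groups are MLL-AF9-Cas9+ cells, that is, lineage-negative mouse bone marrow cells transformed by a retrovirus carrying the MLL-AF9 fusion, passed through mice and then grown in culture with SCF, IL-3 and IL-6. Both express Cas9 and received a lentiviral vector that carries the sgRNA with RFP and puromycin resistance, and both were kept in puromycin at 2 μg/ml for 3 days. The groups differ by the sgRNA, which cuts Sgf29 in the sgSgf29 cells and a nonessential sequence in the sgCtrl cells. The sources do not say whether the libraries numbered 1 to 3 are separate cultures or carry different sgRNA sequences, and the p-values below therefore rest only on how far these libraries spread.

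Mitochondria have ribosomes of their own, made of a large and a small subunit, which translate the few mRNAs of the mitochondrial genome into core subunits of the respiratory chain. Their rRNAs come from mitochondrial DNA, whereas all of their proteins are encoded in the nucleus, made by cytoplasmic ribosomes and imported. Some of these proteins have bacterial homologs and others occur only in mitochondria. Leukemia cells of the myeloid lineage are known to depend on mitochondrial translation and respiration.

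Values are CPM, that is, counts per 1000000 gene counts of a library after scaling with the trimmed mean of M values (TMM). A gene is called where its adjusted p is under 0.05 in edgeR's quasi-likelihood test over all genes tested. Gene counts ran from 16003990 to 21786618 per library, and 11169 genes passed the filter on low counts. Sgf29 itself measured 12.6, 13.4 and 17.4 CPM in the sgSgf29 libraries, against 36.2, 40.4 and 40.4 CPM in the sgCtrl libraries. Of 14 markers of mature myeloid cells, 11 were called higher and 2 lower, and their summed level was 26429 to 27984 CPM in sgSgf29 and 9072 to 9833 CPM in sgCtrl libraries. Of 8 markers of leukemic progenitors, 7 were tested, of which 4 were called lower and 3 higher. Their sums were 569 to 607 CPM in the sgSgf29 libraries and 869 to 872 CPM in the sgCtrl libraries. Markers of B cells summed to at most 1.27 CPM in any library, those of erythroid cells to at most 2.03 CPM with 4 of 6 at 0, and those of stroma to at most 8.35 CPM. The part of these differences in myeloid and progenitor markers in the results below was not tested. In such bulk libraries, fewer cells of a type and less RNA per cell cannot be told apart.

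Mitochondrial ribosomal protein genes were mostly lower in the sgSgf29 cells, in both subunits and by a modest amount. Of the 77 members tested, 68 were called lower (88.3%), 1 was called higher and 8 were not called. Over all 11169 genes tested, 34.4% were called lower and 35.4% were called higher. The median log2 fold change of the members was -0.51, or 0.702 of the sgCtrl level, beside a median of 0.01 over all genes tested. The quartiles of the members lay at -0.69 and -0.33, and the whole list lay between -1.38 for Mrps6 and 0.22 for Mrpl33. All 3 sgSgf29 libraries lay below all 3 sgCtrl libraries for each of the 68 members called lower, whereas 35.1% of all genes tested had no overlap in that direction. The fitted change was below 0 for 75 of the 77 members, beside 5506 of all 11169 genes tested. A fall of 2-fold or more was fitted for 3 members (Mrps6, Mrpl19 and Mrpl12), beside 525 of all genes tested. A change of at least 1.5-fold, added to the adjusted p, kept 26 members, 14 of the large and 12 of the small subunit, and no member called higher. Over all genes tested, the same rule kept 1723 called lower and 2113 called higher.

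The size of these differences depends on the scaling. Scaling by library size alone moved the median of all genes to 0.24 and that of the members to -0.28, with 50 members called lower and 6 higher. The 6 were Mrpl33, Mrpl4, Mrpl10, Mrpl39, Mrpl48 and Mrps21. Of all 11169 genes tested, 2385 were called lower and 5575 higher with library size alone. Each tested member moved up by 0.23 on the log2 scale, and 3 members called lower with TMM came out just above 0 and uncalled (Mrpl44 at 0.023, Mrps33 at 0.0071 and Mrpl27 at 0.0034). The distance between the members and the median of all genes was -0.52 under that scaling as under TMM, and it lay between -0.55 and -0.50 under every alternative run.

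**Figure D1:**
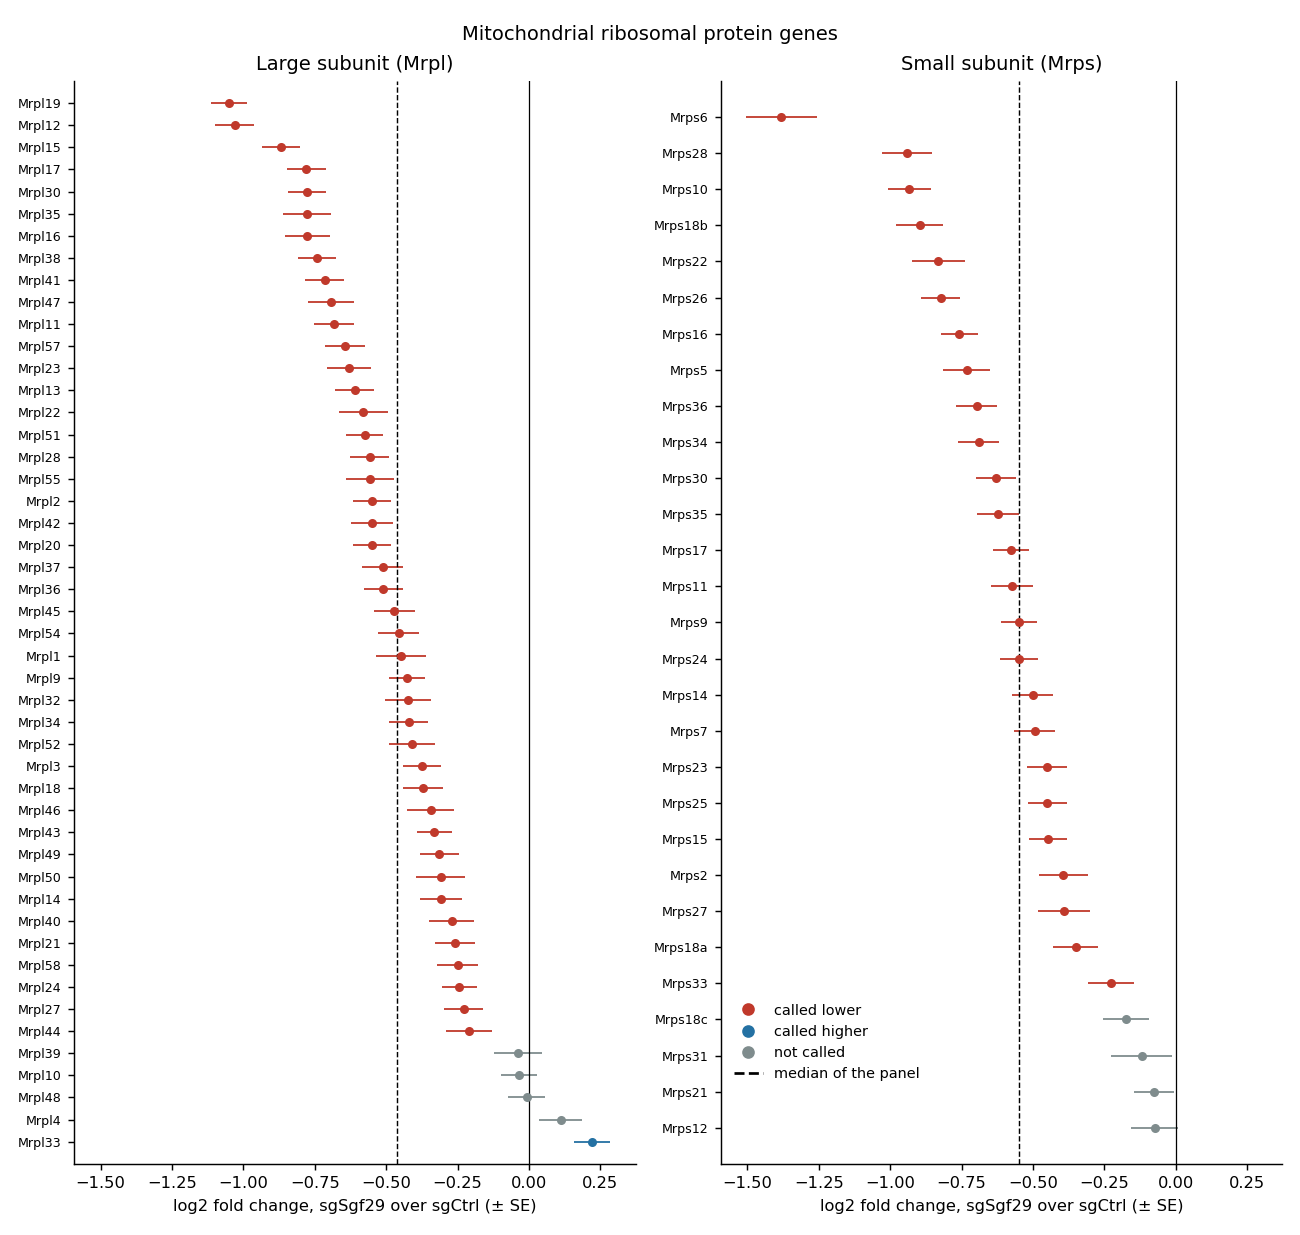
Log2 fold change (sgSgf29 over sgCtrl) of the 48 tested Mrpl genes, left, and the 29 Mrps genes, right, with bars for the standard error, and a dashed line at the median of each panel (-0.46 and -0.55). Most points lie left of 0, with 8 uncalled members near 0 and Mrpl33 alone called higher.

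Among the 48 large subunit genes tested, 43 were called lower, 1 higher and 4 were not called, with a median log2 fold change of -0.46. Mrpl19, a homolog of bacterial L19, stood at 91.0, 82.4 and 89.0 CPM in sgSgf29 libraries, against 178, 184 and 181 CPM in sgCtrl libraries. Its log2 fold change was -1.05 (SE 0.0636, adjusted p = 1.05e-11). Its exons overlap 1962 bases of Gcfc2 on the opposite strand, which makes its count less certain, and whether this raised or lowered the count was not tested. Mrpl15, a homolog of bacterial L15, has no such neighbor. It measured 54.1, 49.6 and 53.1 CPM in the sgSgf29 libraries and 92.6, 93.9 and 99.2 CPM in the sgCtrl libraries, for a log2 fold change of -0.87 (SE 0.0661). Both genes had sgSgf29 libraries far below the lowest sgCtrl library.

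The L7/L12 stalk recruits translation factors to the ribosome, and Mrpl12 is its mobile part, a protein also known to bind the mitochondrial RNA polymerase. Mrpl12 measured 93.5, 93.6 and 102 CPM in sgSgf29 libraries, against 210, 184 and 197 CPM in sgCtrl libraries, for a log2 fold change of -1.03 (SE 0.0680, adjusted p = 4.07e-11). Exons of Mrpl12 overlap 200 bases of Gm16755 on the opposite strand. Mrpl10, which anchors Mrpl12 to the ribosome, was at 68.1, 66.5 and 70.6 CPM in the sgSgf29 libraries and at 70.0, 69.7 and 70.2 CPM in the sgCtrl libraries. The groups overlapped for Mrpl10, and its log2 fold change of -0.03 (SE 0.0634, adjusted p = 0.646) was not called. The anchor and the mobile protein of the stalk were thus near opposite ends of the list. Mrpl11, at the stalk base, was called lower (-0.68, SE 0.0693), as was Mrpl54 (-0.46, SE 0.0717).

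The remaining stalk gene, Mrpl53, had 0 counts in all 6 libraries. Only if its reads could be counted does this limit its level, to 0.138 to 0.187 CPM per library (3 counts, counting error only). All 695 bases of its annotated transcript lie in exons of Gm42688 on the same strand. Whether reads of Mrpl53 were lost for that reason was not tested, and it is the member that did not pass the filter.

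Around the exit of the peptide tunnel, where the new chain meets the inner membrane, 6 of 6 genes were called lower, with a median of -0.61 (5 lower and a median of -0.37 under library-size scaling). Mrpl17 measured 69.7, 69.4 and 75.5 CPM in the sgSgf29 libraries and 128, 113 and 127 CPM in the sgCtrl libraries, a log2 fold change of -0.78 (SE 0.0681). Mrpl45, which ties the large subunit to the membrane, changed less, at 89.0, 74.5 and 83.0 CPM in sgSgf29 and 119, 108 and 114 CPM in sgCtrl libraries (-0.47, SE 0.0712). Mrpl24 changed least of the 6 (-0.24, SE 0.0601), and it is the member whose call was lost under library-size scaling (-0.01). The groups still did not overlap for any of the 6 under TMM.

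The central protuberance, where the large subunit faces the head of the small subunit, had 5 of 6 genes called lower with a median of -0.36. Under library-size scaling only 2 of the 6 were called lower and 1 higher, with a median of -0.13. Mrpl38, found only in mitochondrial ribosomes, was at 41.5, 41.6 and 39.2 CPM in sgSgf29 libraries, against 66.9, 67.0 and 70.4 CPM in sgCtrl libraries (log2 fold change -0.74, SE 0.0676, adjusted p = 5.22e-09). Mrpl48 of the same region measured 66.1, 64.1 and 65.0 CPM in the sgSgf29 libraries and 67.9, 62.7 and 65.6 CPM in the sgCtrl libraries. Those groups overlapped, with the smallest change of any member (-0.01, SE 0.0648), and its sign turned with the scaling and with single libraries. Mrpl48 has 1 annotated pseudogene and an overlap of 708 bases with Rab6a on the opposite strand.

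By origin, 27 of 30 large subunit genes with a bacterial homolog were called lower and 1 higher (median -0.55), and 18 of 20 tested genes found only in mitochondria were called lower (median -0.38). Under library-size scaling the genes with a bacterial homolog had 21 lower and 3 higher (median -0.32), and those found only in mitochondria had 9 lower and 2 higher (median -0.15). Mrps30 and Mrps18a were counted here with the large subunit, since their proteins are known to sit there despite their symbols. Placed by structure in this way, 45 of 50 large subunit genes and 23 of 27 small subunit genes were called lower, with medians still at -0.46 and -0.55. Whether these kinds differ was not tested. Other large subunit genes with very small adjusted p were Mrpl30, a homolog of bacterial L30 (-0.78, SE 0.0656), and Mrpl41, known only from mitochondria (-0.72, SE 0.0674).

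Mrpl33 was the member called higher. This short protein, a homolog of bacterial L33, measured 233, 224 and 234 CPM in sgSgf29 libraries, against 207, 187 and 198 CPM in sgCtrl libraries. All sgSgf29 libraries lay above all sgCtrl libraries, with a log2 fold change of 0.22 (SE 0.0629, adjusted p = 0.00384), and the change is under 1.5-fold. Per kilobase of transcript it was also the most abundant large subunit mRNA, at 481 CPM per kilobase in sgSgf29 and 413 in sgCtrl cells. An exon overlap of 261 bases with Gm43809 on the same strand makes its count less certain.

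Mrpl4, a homolog of bacterial L4 that lines the peptide tunnel, had 57.6, 64.8 and 55.6 CPM in the sgSgf29 libraries and 55.7, 51.2 and 57.8 CPM in the sgCtrl libraries. Its groups overlapped (log2 fold change 0.11, SE 0.0746, adjusted p = 0.191), and it was called higher under library-size scaling (0.34). Mrpl39, found only in mitochondria, measured 45.9, 40.2 and 46.1 CPM in sgSgf29 and 41.4, 43.4 and 50.4 CPM in sgCtrl libraries, also overlapping (-0.04, SE 0.0836, adjusted p = 0.699). With Mrpl10 and Mrpl48, these are the 4 large subunit genes that were not called.

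**Figure D2:**
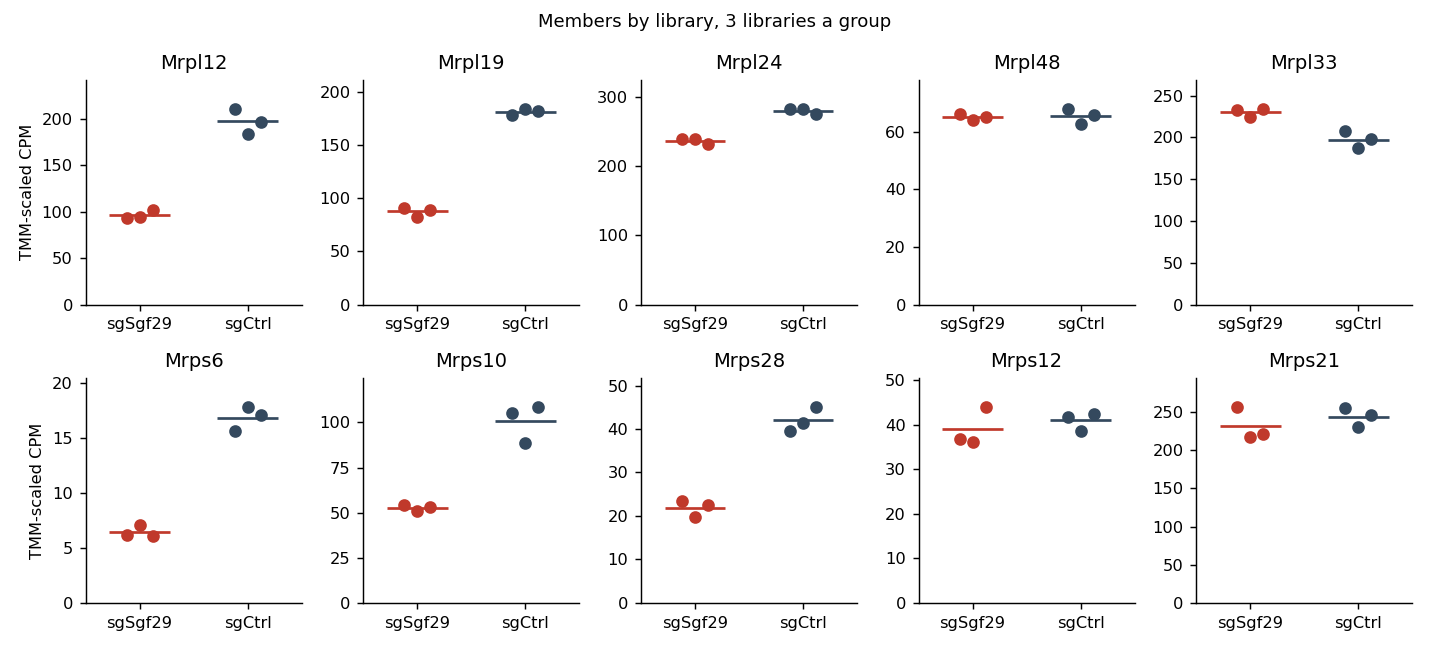
TMM-scaled CPM of 10 members in each library, with sgSgf29 left of sgCtrl, points for libraries and lines for the means of 3 libraries. Mrpl12, Mrpl19, Mrpl24, Mrps6, Mrps10 and Mrps28 have every sgSgf29 point below every sgCtrl point, Mrpl33 has them above, and Mrpl48, Mrps12 and Mrps21 overlap.

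Among the 29 small subunit genes, 25 were called lower, 4 were not called and 0 were called higher, with a median log2 fold change of -0.55. The small subunit binds the mRNA and holds the decoding center. Mrps6, a homolog of bacterial S6, had the largest fold change of all members. It was at 6.15, 7.12 and 6.11 CPM in the sgSgf29 libraries, against 15.7, 17.8 and 17.1 CPM in the sgCtrl libraries, for a log2 fold change of -1.38 (SE 0.123, adjusted p = 3.94e-09). It also had the lowest CPM of the tested members in the sgSgf29 libraries, and its exons overlap those of Slc5a3 and Gm49711 on the same strand over 464 bases, which makes its count uncertain.

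Mrps10, a protein of the head of the small subunit, overlaps no other exon. It measured 54.4, 51.2 and 52.9 CPM in sgSgf29 libraries, against 105, 88.4 and 108 CPM in sgCtrl libraries, a log2 fold change of -0.93 (SE 0.0753, adjusted p = 8.55e-10). Mrps28, likewise free of overlaps, had 23.5, 19.8 and 22.5 CPM in the sgSgf29 libraries and 39.5, 41.4 and 45.0 CPM in the sgCtrl libraries (-0.94, SE 0.0875). Both had sgSgf29 levels well below the lowest sgCtrl library. Of 8 genes of the head, 7 were called lower (median -0.53), and 6 were under library-size scaling (median -0.29).

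Mrps16, a homolog of bacterial S16, measured 73.2, 67.6 and 71.1 CPM in the sgSgf29 libraries and 122, 114 and 122 CPM in the sgCtrl libraries (log2 fold change -0.76, SE 0.0641, adjusted p = 1.74e-09). Mrps26, known only from mitochondria, was at 81.6, 75.3 and 85.0 CPM in sgSgf29 libraries, against 153, 138 and 137 CPM in sgCtrl libraries (-0.82, SE 0.0687, adjusted p = 1.43e-09). The groups were clearly apart for both. Mrps18b (-0.90, SE 0.0812) and Mrps34 (-0.69, SE 0.0719) were lower as well. Exons of both have neighbors, with 638 bases of Mrps18b opposite Gm16279 and 763 bases of Mrps34 on the same strand as Nme3. Mrps34 also has 1309 bases opposite Mapk8ip3.

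Mrps36 bears a ribosomal symbol, but its protein was later placed in the alpha-ketoglutarate dehydrogenase complex. It too was called lower, at 40.7, 38.0 and 37.7 CPM in sgSgf29 and 59.9, 61.5 and 66.9 CPM in sgCtrl libraries (-0.70, SE 0.0718), and 2 pseudogenes of it are annotated. By origin, 13 of 16 small subunit genes with a bacterial homolog (median -0.55) and 9 of 10 found only in mitochondria (median -0.54) were called lower. Under library-size scaling these were 12 lower and 1 higher (median -0.32), and 7 lower (median -0.30). Mrps18b was counted with the 10 found only in mitochondria, although it is also a mammalian copy of bacterial S18.

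The 4 small subunit genes that were not called all overlapped between groups. Mrps12, a homolog of bacterial S12 in the decoding center, had 36.8, 36.2 and 43.9 CPM in the sgSgf29 libraries and 41.9, 38.6 and 42.5 CPM in the sgCtrl libraries (log2 fold change -0.07, SE 0.0836, adjusted p = 0.442). Mrps21, a homolog of bacterial S21, measured 256, 218 and 221 CPM in sgSgf29 and 256, 231 and 246 CPM in sgCtrl libraries (-0.08, SE 0.0708, adjusted p = 0.344). These levels were nearly alike, as they were for Mrps31, found only in mitochondria (-0.12, SE 0.108, adjusted p = 0.335). Under library-size scaling all 3 turned positive, and of them only Mrps21 was called (0.15). Mrps18c, 1 of 3 mammalian copies of bacterial S18, lay just above the threshold (-0.17, SE 0.0795, adjusted p = 0.0572). It was called lower under 7 alternative settings, among them relative log expression (RLE) scaling (adjusted p = 0.0442), and was above 0 and uncalled under library-size scaling (0.057). Its values were 79.0, 71.4 and 83.4 CPM in sgSgf29 libraries, against 80.1, 84.0 and 99.0 CPM in sgCtrl libraries. Exons of Mrps18c overlap those of Gm43511 on the same strand over 250 bases.

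The 3 genes for S18 thus gave different values. Mrps18b changed by -0.90 and Mrps18a by -0.35 (SE 0.0788, a call lost under library-size scaling) on the log2 scale, and Mrps18c was at -0.17, a value whose call depends on the setting. Their proteins sit at different places in the ribosome, with Mrps18a in the large subunit. Whether the 3 changes differ from each other was not tested.

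Measured per kilobase of transcript, the most abundant small subunit mRNA was Mrps21, with 475 CPM per kilobase in sgSgf29 and 500 in sgCtrl cells, followed by Mrps18c (122 in sgSgf29 and 137 in sgCtrl cells) and Mrps15 (79.2 in sgSgf29 and 108 in sgCtrl cells). In the large subunit Mrpl24 (177 in sgSgf29 and 210 in sgCtrl cells) and Mrpl52 (153 in sgSgf29 and 203 in sgCtrl cells) came after Mrpl33. The lowest were Mrpl47 (7.11 in sgSgf29 and 11.5 in sgCtrl cells) and Mrpl1 (6.53 in sgSgf29 and 8.87 in sgCtrl cells) in the large subunit. In the small subunit Mrps6 was lowest in sgSgf29 cells (7.64 in sgSgf29 and 19.95 in sgCtrl cells), and Mrps31 was lowest in sgCtrl cells (9.27 in sgSgf29 and 10.03 in sgCtrl cells). Mrps5 was second lowest in both groups (8.20 in sgSgf29 and 13.6 in sgCtrl cells). Of these most abundant mRNAs per length in their own subunit, Mrpl33, Mrps21 and Mrps18c were not called lower in the main fit, whereas Mrpl24, Mrpl52 and Mrps15 were. Mrps18c was high only within the small subunit, and lay below Mrpl24 and Mrpl52 in both groups.

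Summed over the members, the sgSgf29 libraries held 4823, 4529 and 4767 CPM, against 6640, 6274 and 6681 CPM in the sgCtrl libraries. Large subunit genes summed to 3179 ± 96.2 CPM in sgSgf29 cells and 4367 ± 146 CPM in sgCtrl cells (SD, n = 3 each). Small subunit genes summed to 1527 ± 60.2 CPM in sgSgf29 cells and 2165 ± 79.6 CPM in sgCtrl cells (SD, n = 3 each). No group overlapped the other in these sums, which were 0.728 and 0.705 of the sgCtrl level. Without scaling factors the libraries gave 5117, 4978 and 5193 CPM for the members in sgSgf29 libraries, against 6085, 5855 and 6138 in sgCtrl libraries.

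The balance between the subunits can be read within each library, where scaling cannot move it. Each count of a small subunit gene came with 2.06, 2.10 and 2.08 counts of large subunit genes in the sgSgf29 libraries, against 2.03, 2.02 and 2.00 in the sgCtrl libraries. The groups did not overlap, but the ratio differed by a factor of only 1.03. An exact two-sided permutation test of 3 libraries against 3 cannot give a p below 0.1.

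**Figure D3:**
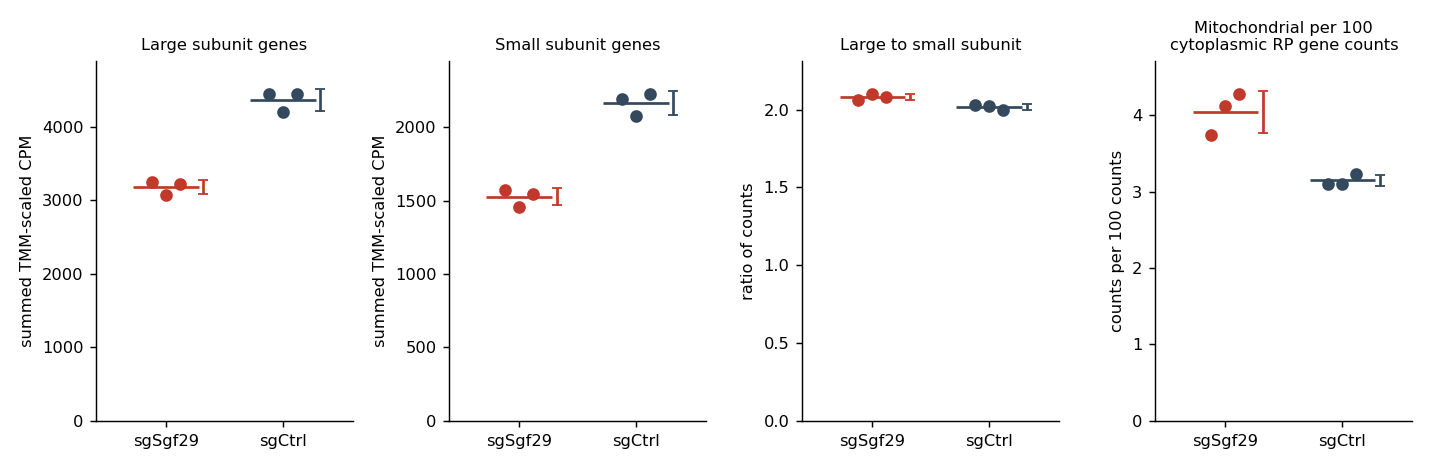
Summed TMM-scaled CPM of Mrpl and Mrps genes, their ratio in counts, and their joint count per 100 counts of cytoplasmic ribosomal protein (RP) genes, for each library, with sgSgf29 left of sgCtrl. Points are libraries, lines are means, and bars are the SD of 3 libraries. Both sums are lower in sgSgf29 libraries, the ratio is near 2.08 and 2.02, and the last panel is higher in sgSgf29 libraries.

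Genes of the cytoplasmic ribosome, which makes the mitochondrial ribosomal proteins, were lower by more. All 78 of them were called lower, with a median log2 fold change of -0.81, beside -0.51 for the mitochondrial members. Mitochondrial members therefore made up a larger part relative to them, with 3.74, 4.11 and 4.28 counts per 100 cytoplasmic ribosomal protein counts in sgSgf29 libraries, against 3.11, 3.10 and 3.23 in sgCtrl libraries. Relative to all other genes, with both kinds of ribosomal protein gene taken out, they made up 0.596, 0.569 and 0.594% of counts in the sgSgf29 libraries and 0.763, 0.727 and 0.764% in the sgCtrl libraries. The members were thus lower than the rest of the transcriptome and higher relative to cytoplasmic ribosomal protein genes, with no overlap between groups on either measure.

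Ribosomal proteins of mitochondria that carry other symbols went the same way, with 5 of 5 called lower (median -0.77). Gadd45gip1, a large subunit protein also known as CRIF1, measured 59.5, 56.6 and 62.5 CPM in sgSgf29 libraries, against 127, 109 and 130 CPM in sgCtrl libraries (log2 fold change -1.04, SE 0.0736, adjusted p = 1.24e-10). Ptcd3, a small subunit protein with pentatricopeptide repeats, had 33.0, 39.6 and 37.3 CPM in the sgSgf29 libraries and 77.8, 76.9 and 71.1 CPM in the sgCtrl libraries (-1.03, SE 0.0756). Both fell by more than 2-fold, as few members of the symbol list did. Chchd1 (-0.77, SE 0.0706), Dap3 (-0.37, SE 0.0621) and Aurkaip1 (-0.24, SE 0.0673) are the other three, and the call of Aurkaip1 was lost under library-size scaling (-0.01).

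Factors that build the mitochondrial ribosome were more mixed than its proteins. Of 27 assembly genes tested, 14 were called lower, 4 higher and 9 were not called, with a median of -0.18. Under library-size scaling 5 were lower and 9 higher, with a median of 0.05, beside 0.24 for all genes. Of all 11169 genes tested, 2385 were lower and 5575 higher under that scaling, so the assembly genes still lay below the median of all genes. The protease subunits Afg3l2 and Spg7 act in 1 complex that processes Mrpl32 before it joins the ribosome. Afg3l2 was at 95.3, 98.2 and 101 CPM in sgSgf29 libraries, against 164, 177 and 159 CPM in sgCtrl libraries (-0.77, SE 0.0641). Spg7 was at 59.9, 58.9 and 60.6 CPM in sgSgf29 libraries, against 47.8, 41.4 and 45.3 CPM in sgCtrl libraries (0.41, SE 0.0710). The 2 subunits thus went in opposite directions, each without overlap between groups, and their target Mrpl32 was lower (-0.42, SE 0.0805).

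Among the other assembly genes, Rcc1l, an assembly factor of the mitochondrial ribosome (-0.78, SE 0.0786), and Mrm3, an rRNA methyltransferase (-0.76, SE 0.117), were lower. Ngrn (0.40, SE 0.0878), Ybey, an endoribonuclease (0.52, SE 0.158), and Mettl15, an rRNA methyltransferase of the small subunit (0.70, SE 0.241), were higher. Ybey and Mettl15 are low mRNAs of under 10 CPM in every library.

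Of 15 translation factors tested, 8 were called lower, 2 higher and 5 were not called (median -0.30). Under library-size scaling 4 were lower and 3 higher (median -0.07, beside 0.24 for all genes). Lrpprc and Slirp form a complex that stabilizes mitochondrial mRNAs. Lrpprc measured 38.6, 38.2 and 40.2 CPM in the sgSgf29 libraries and 67.3, 78.6 and 80.5 CPM in the sgCtrl libraries (-0.95, SE 0.0753), and Slirp was lower as well (-0.39, SE 0.0644). Guf1, a back-translocase homologous to bacterial LepA, was lower (-0.71, SE 0.0807). The deformylase Pdf was higher at a low level, with 1.82, 1.76 and 1.81 CPM in sgSgf29 libraries and 0.763, 0.803 and 0.749 CPM in sgCtrl libraries (1.21, SE 0.309), and so was Taco1, which activates translation of the Co1 mRNA (0.37, SE 0.151).

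Mitochondrial aminoacyl-tRNA synthetases, which load the tRNAs, had 15 of 17 genes called lower and 0 higher (median -0.51, or -0.28 with 9 lower under library-size scaling). Vars2 was at 41.2, 39.1 and 40.8 CPM in sgSgf29 libraries, against 74.6, 81.8 and 74.7 CPM in sgCtrl libraries (-0.93, SE 0.0686). Tars2 (-0.83, SE 0.0663) and Cars2 (-0.83, SE 0.0695) changed by nearly as much. The median of this list was close to that of the ribosomal proteins.

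The mRNAs that mitochondrial ribosomes translate were also mostly lower, with 9 of 11 tested called lower and 0 higher (median -0.61, or -0.38 under library-size scaling). Their sum varied widely between libraries, at 26772, 22532 and 19895 CPM in sgSgf29 and 34513, 39803 and 24631 CPM in sgCtrl libraries, so that the groups overlapped. The complex I subunits mt-Nd1 (-0.96, SE 0.139), mt-Nd2 (-0.87, SE 0.131) and mt-Nd4 (-0.61, SE 0.112) had no overlap. By contrast, mt-Nd5, mt-Nd6, mt-Co1 and mt-Co3 were called lower although their groups overlapped. Counts of mt-Co2, mt-Co3 and mt-Atp6 were low, with means of 7.89, 7.28 and 5.30 CPM in sgCtrl cells beside 14978 CPM for mt-Co1, so their calls are less certain. mt-Cytb of complex III was not called (-0.08, SE 0.116, adjusted p = 0.561), and 6 of the 11 kept their call as lower under library-size scaling.

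Of 11 genes known to regulate mitochondrial biogenesis, 7 were called lower and 1 higher (median -0.29). Under library-size scaling 4 were lower and 1 higher (median -0.06, beside 0.24 for all genes). Myc, a transcription factor that drives ribosome genes, measured 97.9, 119 and 121 CPM in sgSgf29 libraries, against 208, 231 and 228 CPM in sgCtrl libraries (-0.98, SE 0.0770). The coactivators Pprc1 (-0.74, SE 0.0747) and Ppargc1b (-1.96, SE 0.231) were lower, the second at 1.41, 1.31 and 1.17 CPM in sgSgf29 and 4.26, 5.29 and 5.55 CPM in sgCtrl libraries. Gabpa, the DNA-binding subunit of an ETS-family factor known to act at promoters of mitochondrial genes, was higher (0.33, SE 0.0753), whereas its partner subunit gene Gabpb1 was lower (-0.41, SE 0.0774), a call that was lost under library-size scaling (-0.18). Nrf1, for nuclear respiratory factor, was not called (-0.11, SE 0.0734, adjusted p = 0.198).

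**Figure D4:**
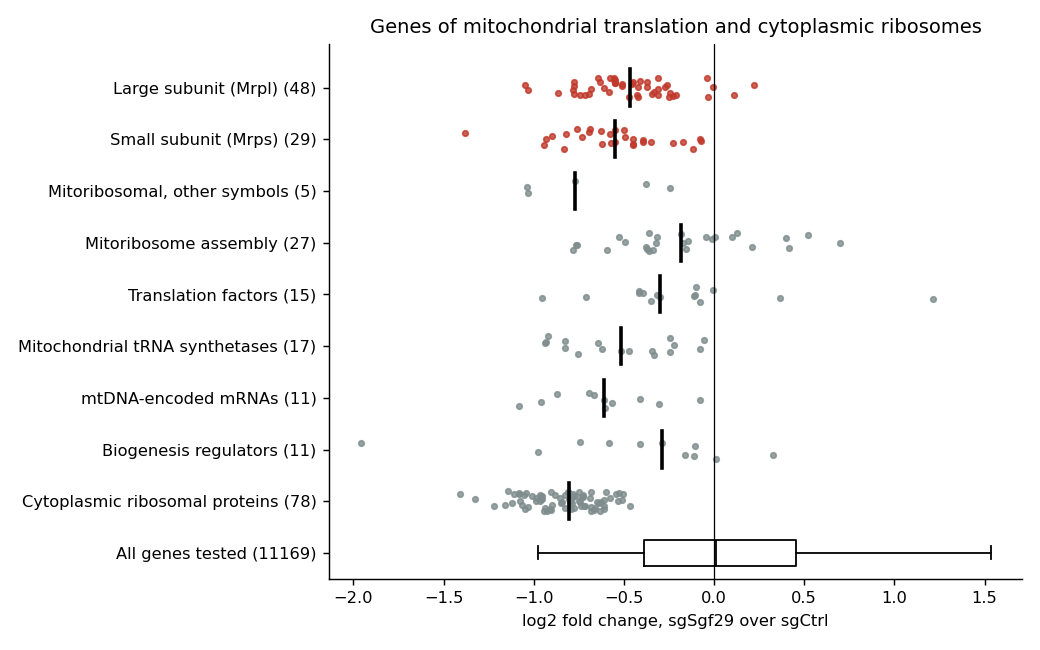
Log2 fold change (sgSgf29 over sgCtrl) of each tested gene in the 2 subunits, related gene lists, cytoplasmic ribosomal proteins and all genes tested, with the number tested in brackets. Points are genes, black bars are medians, and the box for all genes spans the quartiles with whiskers at the 5th and 95th percentiles. Cytoplasmic ribosomal proteins lie furthest left as a group (median -0.81), and assembly genes straddle 0 (median -0.18).

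The members lie on 17 chromosomes. On 26 occasions a member starts beside a gene that is read in the other direction, within 1000 bases, or with an overlap of up to 500 bases (Mrpl46 and Mrps11 are each other's partner and count on both sides). In these pairs 23 members were called lower, and of the partners 17 were called lower, 2 higher and 7 were not called. The median log2 fold change was -0.47 for the members and -0.41 for the partners. For the 51 tested members with no such partner, 45 were called lower, with a median of -0.55.

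Some pairs went together and others did not. Mrpl49 (-0.31, SE 0.0677) lies 59 bases from the start of the cytoplasmic ribosomal protein gene Fau, which was lower too (-0.53), although the call of Mrpl49 was lost under library-size scaling (-0.08). Mrpl32 (-0.42) and Psma2, a proteasome subunit gene (-0.39), start 75 bases apart. In contrast, Mrpl2 was lower (-0.55, SE 0.0663), and Klc4, a kinesin light chain gene whose start is 207 bases away, was higher (1.11), with means of 50.8 CPM in sgSgf29 and 23.6 CPM in sgCtrl cells. Mrpl41 was lower and Pnpla7 higher (0.45) across 935 bases, and Mrps12 was not called while Sars2, the mitochondrial seryl-tRNA synthetase gene, was lower (-0.51) across 172 bases.

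**Figure D5:**
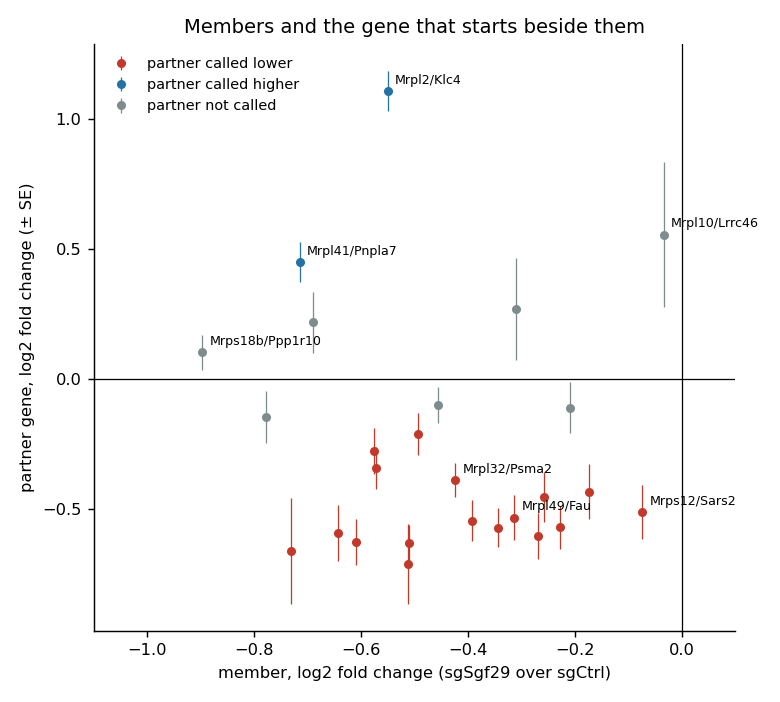
Log2 fold change of the partner gene (vertical, with standard error) against that of the member that starts beside it (horizontal) for 26 pairs, sgSgf29 over sgCtrl. Most pairs lie at lower left, and Sars2 lies below 0 beside an uncalled Mrps12. Klc4 and Pnpla7 lie above 0 and were called higher. Lrrc46, Zfp189, Eme2 and Ppp1r10 also lie above 0 and were not called.

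Overlapping exons touch 33 members in the GENCODE annotation, 8 on the same strand and 28 on the opposite strand, with some in both. Of the 45 members with no overlap, all tested, 40 were called lower and 0 higher (median -0.55). Of the 32 tested members with an overlap, 28 were called lower and 1 higher (median -0.41). What such overlaps did to the counts was not tested. The share called lower was similar for members without and with an overlap. The extremes were not, since the 3 members that fell by 2-fold or more (Mrps6, Mrpl19 and Mrpl12) and Mrpl33 all have an overlap. Falls of at least 1.5-fold were fitted for 17 of the 45 members without an overlap and 9 of the 32 with one.

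RefSeq gives a promoter window, from 250 bases before to 50 bases after the gene start on GRCm38.p6, for 69 of the 78 members. The letters of 6 motifs known from promoters of ribosomal and mitochondrial genes were searched on both strands, and none of the 6 contains another. The ETS motif of GABP (CCGGAAG) was in a window of 26 of the 69 members (37.7%), 21.6% of 8737 tested genes with a window and 9.93% of all 27025 genes with a window. The YY1 motif (AAGATGGC) was in 12 (17.4%), against 5.64% and 3.19% of those genes, and the core of the NRF1 motif (GCGCATGC) in 8 (11.6%), against 6.40% and 3.05%. The E-box (CACGTG) was found in 5 (7.25%), against 11.98% and 8.09%. The GC box (GGGCGG) was in 34 (49.3%), against 68.9% and 38.2%, and CCAAT in 27 (39.1%), against 43.4% and 41.1%. A match describes the letters in a window and no binding. The median log2 fold change was -0.37 for the 25 tested members with the ETS letters and -0.55 for the 43 without them, and it was -0.50 and -0.46 for the 12 with and 56 without the YY1 letters. For the GC box it was -0.55 with (34) and -0.42 without (34), and for CCAAT -0.53 with (26) and -0.45 without (42). For the NRF1 letters it was -0.43 with (8) and -0.50 without (60), and for the E-box -0.51 with (5) and -0.45 without (63). Whether any of these differ was not tested.

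The 150 bases before the start are printed for 5 members that span the range of changes, with the motifs above in capitals on either strand. They are the promoters of the member with the largest fall, of the stalk protein, of a tunnel exit protein, of a shared head-to-head start, and of the member that was higher. Mrps6 lies at chr16:92058186-92058335 (plus strand), Mrpl12 at chr11:120484487-120484636 (plus), Mrpl22 at chr11:58171514-58171663 (plus), Mrps11 at chr7:78782981-78783130 (plus) and Mrpl33 at chr5:31613801-31613950 (plus).
Mrps6: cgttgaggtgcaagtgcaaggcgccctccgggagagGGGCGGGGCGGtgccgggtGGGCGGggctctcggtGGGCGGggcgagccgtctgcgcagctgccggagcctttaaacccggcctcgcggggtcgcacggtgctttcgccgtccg
Mrpl12: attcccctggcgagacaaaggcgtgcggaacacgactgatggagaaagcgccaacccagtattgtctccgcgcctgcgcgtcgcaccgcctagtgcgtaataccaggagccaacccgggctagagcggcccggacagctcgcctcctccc
Mrpl22: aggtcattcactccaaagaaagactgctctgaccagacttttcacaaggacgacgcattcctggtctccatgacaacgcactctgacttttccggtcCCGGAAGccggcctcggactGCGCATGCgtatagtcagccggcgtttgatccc
Mrps11: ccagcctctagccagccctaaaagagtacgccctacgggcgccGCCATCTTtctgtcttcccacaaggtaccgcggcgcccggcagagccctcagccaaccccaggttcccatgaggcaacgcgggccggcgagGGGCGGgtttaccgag
Mrpl33: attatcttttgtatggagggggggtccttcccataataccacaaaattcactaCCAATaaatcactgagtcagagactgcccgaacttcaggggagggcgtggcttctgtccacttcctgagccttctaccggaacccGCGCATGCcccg

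The printed stretches differ in the letters they hold. The Mrps6 stretch holds 4 matches of the GC box, the first 2 of which share a base, and no other motif of the set. The Mrpl12 stretch, of a gene that also fell by more than 2-fold, holds 0 matches of the 6 motifs. Mrpl22 (log2 fold change -0.58, SE 0.0855) has the ETS and NRF1 letters, and Mrps11 (-0.57, SE 0.0740) has the YY1 letters on the opposite strand and 1 GC box. Mrpl33, the member that was higher, has the NRF1 letters and a CCAAT box, and its whole window also holds the ETS letters outside the printed bases. Members with large falls thus had stretches both with and without these motifs.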

How the data were processed

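The authors deposited raw counts per gene for 6 mRNA libraries of the series in 1 table, and the chromatin libraries were not analysed here. The paper names STAR on the mm10 genome, featureCounts and edgeR. STAR 2.6.0a and GRCm38 are named in the submitters' processing notes, and the table has the bookkeeping entries that htseq-count writes. These entries held 29.1% ± 0.891 of the table in the sgSgf29 and 28.8% ± 2.78 in the sgCtrl libraries (SD, n = 3 each) and took no part in library sizes or tests. Which annotation and strand setting were used is not given in the sources used.

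Genes were kept by filterByExpr with its minimum count of 10 and total of 15, scaled by TMM (mean factor 1.08 in sgSgf29 and 0.923 in sgCtrl libraries) and compared by quasi-likelihood tests (edgeR 4.0.16, R 4.3.3), adjusting p over all genes tested by Benjamini-Hochberg. The biological coefficient of variation was 6.61%. SD values are of TMM-scaled CPM. Alternatives used other scalings, DESeq2 1.42.0, limma 3.58.1, other filters and thresholds, a replicate block and each library left out. For sgSgf29 against sgCtrl, in counts simulated for 11090 genes, the test found 96 of 100 true 2-fold changes and 85 of 100 true 1.5-fold changes, and 9 of its 190 calls were false. Only these genes were changed there, evenly up and down, whereas 34.4% of genes tested in the data were called lower and 35.4% higher. The simulation therefore gives no error rate for data with so many changes. Libraries of a group all differed by more than sampling noise, with a chi-square per degree of freedom of 4.48 to 15.4 between pairs.

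The members, gene lists and tests were chosen with earlier results of these data known. Named members were, per subunit, the 8 called with the smallest adjusted p, the 3 with the smallest change, all not called or called higher, and the 3 highest and 2 lowest per kilobase. From each related list the 3 called genes with the smallest adjusted p were named, and all called higher where they number 4 or fewer. Other genes were named after their values were seen, for their role or position. Lengths are of the principal transcript in GENCODE (GRCm38), overlaps are from the same annotation, and pseudogenes and promoters are from RefSeq (GRCm38.p6), where all 75 printed windows of members matched the genome.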

Additional observations from a re-analysis of the deposited data

How the results depend on the processing

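Under the other settings, 499 values of named members kept their direction and their side of the threshold, 13 changed sign, 4 of which were then called higher, and of the others 7 lost the call and 8 gained it. Scaling by library size alone gave 2385 genes called lower in the whole table (30.0% of its calls, beside 49.3% with TMM), 5 Mrpl genes and 1 Mrps gene called higher, and medians of -0.23 for Mrpl and -0.32 for Mrps genes. The sign of 10 members turned under it. For 3 members called lower, Mrpl44, Mrps33 and Mrpl27, it turned to values of at most 0.023 that were not called. For 7 uncalled members it turned to 0.22 for Mrpl48, 0.20 for Mrpl10, 0.19 for Mrpl39, 0.16 for Mrps12, 0.15 for Mrps21, 0.11 for Mrps31 and 0.057 for Mrps18c. Requiring a 1.5-fold change, which by construction removes smaller changes, gave 1723 genes lower and 2113 higher in the whole table, 14 Mrpl genes lower and 0 higher, and 12 Mrps genes lower. Mrpl48 was also at 0.017 with upper-quartile scaling, and leaving out each library gave it -0.039 to 0.018. Mrpl39 lay between -0.096 and 0.052 in the same way, turning positive without sgSgf29 replicate 2 or sgCtrl replicate 3. The cause of these turns was not tested.

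Leaving out each library gave medians of -0.51 to -0.41 for Mrpl and -0.58 to -0.52 for Mrps genes, with 64 (without sgSgf29 replicate 2) to 69 members lower and 1 higher each time. With a replicate block 69 members were lower and 1 higher. Mrps18c was the member added, at an adjusted p of 0.0157, and it passed the threshold under 7 settings in all. Same-numbered libraries correlated at 0.0051, 0.055 and 0.078 in their deviations from the group means, and differently numbered ones at -0.091 to 0.040. With 3 libraries a group, such small values cannot tell whether the numbers mark a pairing. Mrps6, at 6 to 18 CPM, and Mrps31 are the members measured with the least precision, and a change of the size of their standard errors is not detectable at this depth.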
